A study of Mus with 9 samples.

Results

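Giant cytoskeletal genes encode some of the longest proteins of muscle and of the linkers that join the cytoskeleton to membranes and to the nucleus. Nebulette, the shorter relative of nebulin, is an exception in this set. The 9 genes described here were picked by name from the deposited gene count table: Ttn, Neb, Nebl, Syne1, Syne2, Dst, Macf1, Dmd and Utrn. All 9 were present among its 55421 genes, and all 9 passed the filter on low counts, which left 19326 genes for testing. Ttn was selected on its level per library in earlier results of these same counts, where it was lowest in the library titled MI 4. Its values are therefore given as a description, with no p of its own, and counts of genes that passed a test are over the other 8. The other members and the lists were also chosen with earlier results of these data known. Their counts beside shares of all tested genes are descriptions and not independent support.

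Bulk RNA sequencing was done on 9 mouse libraries in 3 groups of 3. MI_ART (MI_ART 1, 2 and 3) had myocardial infarction and artesunate, an antimalarial drug dissolved in DMSO and given into the peritoneum. MI (titled MI 2, MI 3 and MI 4) had infarction with vehicle, and Sham (titled CON1-AF, CON2-AF and CON3-AF, with no word on the suffix) had the same surgery without the ligation, with vehicle. All were labelled wild-type male C57BL/6J mice of 8 to 10 weeks, and infarction was made by a lasting ligature on the left anterior descending coronary artery. The labels disagree on the artesunate schedule: the treatment field has 25 mg/kg a day for 7 days after surgery, and the design text has 10 mg/kg on alternate days, from 2 days ahead of surgery to day 7. They also disagree on the species (mice or rats), and the day of harvest is not stated. The title of the series names atrial fibrillation following infarction. The labels do not tie libraries to separate animals, so a p-value reflects only how far these samples spread, which may be technical.

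The tissue label was atria, and the design text read left atrium. Of 5 atrial muscle markers, the summed level was 29.9 to 2782 CPM in MI_ART, 2053 to 4607 CPM in MI and 645 to 2604 CPM in Sham, and MI_ART 3 held the lowest sum. Bmp10, an atrial growth factor, was at 42.0 CPM in MI 4 and at 0 to 0.200 CPM in the other 8 libraries. Ventricular markers were present in every library, at a summed 2564 to 3917 CPM in MI_ART, 1370 to 2535 CPM in MI and 7128 to 8038 CPM in Sham. With both kinds of marker varying this much, the atrial label may not hold equally for every library. Mitochondrial genes took 23.0% to 25.5% of counts in MI_ART, 12.6% to 20.6% in MI and 37.7% to 43.1% in Sham. Total counts per library were 68046341 to 83685313. CPM is used here for read counts relative to a library size that the TMM method (a trimmed mean over gene-wise ratios) had rescaled. Scaling by total counts instead raised the median log2 fold change of all tested genes to 0.88 for MI versus Sham, against 0.04 with TMM, and to 0.75 for MI_ART versus Sham, against 0.01 with TMM. Each fold change below is therefore relative to the median gene, and its direction is given under both scalings where they differ.

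In the sarcomere, titin (Ttn) spans from the Z-disc to the M-band as a molecular spring and scaffold. Nebulin (Neb) lines the thin filaments of skeletal muscle, and nebulette (Nebl) is its shorter relative at the cardiac Z-disc. Nesprin-1 (Syne1) and nesprin-2 (Syne2) cross the outer nuclear membrane and tie the nucleus to the cytoskeleton through the LINC complex. Dystonin (Dst) and Macf1 are spectraplakins, which link actin to microtubules and, for some forms of dystonin, to intermediate filaments. Dystrophin (Dmd) joins cortical actin to the dystroglycan complex of the muscle membrane, and utrophin (Utrn) is its autosomal relative, abundant outside muscle fibres and at their nerve junctions.

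In the RefSeq annotation of GRCm38.p6, Ttn lies on chromosome 2 from 76703980 to 76982557, Neb on chromosome 2 from 52136640 to 52338798 and Nebl on chromosome 2 from 17342673 to 17734949. Syne1 lies on chromosome 10 from 5020192 to 5550692, Utrn on chromosome 10 from 12382187 to 12869888 and Syne2 on chromosome 12 from 75818318 to 76110928. Dst lies on chromosome 1 from 33907888 to 34308662, Macf1 on chromosome 4 from 123349633 to 123687802 and Dmd on chromosome X from 82814664 to 85205050. These intervals are whole genes, introns included, and span from 202159 bases for Neb to 2390387 bases for Dmd. All of them except Ttn overlap other annotated genes. The strand setting of the counting is not given in the sources used here, so reads in an overlap cannot be assigned with certainty. Among the overlapping genes found by symbol in the count table, the one with the most counts was Bend6 at the start of Dst, with 2036 counts over all 9 libraries beside 225061 for Dst.

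**Figure D1:**
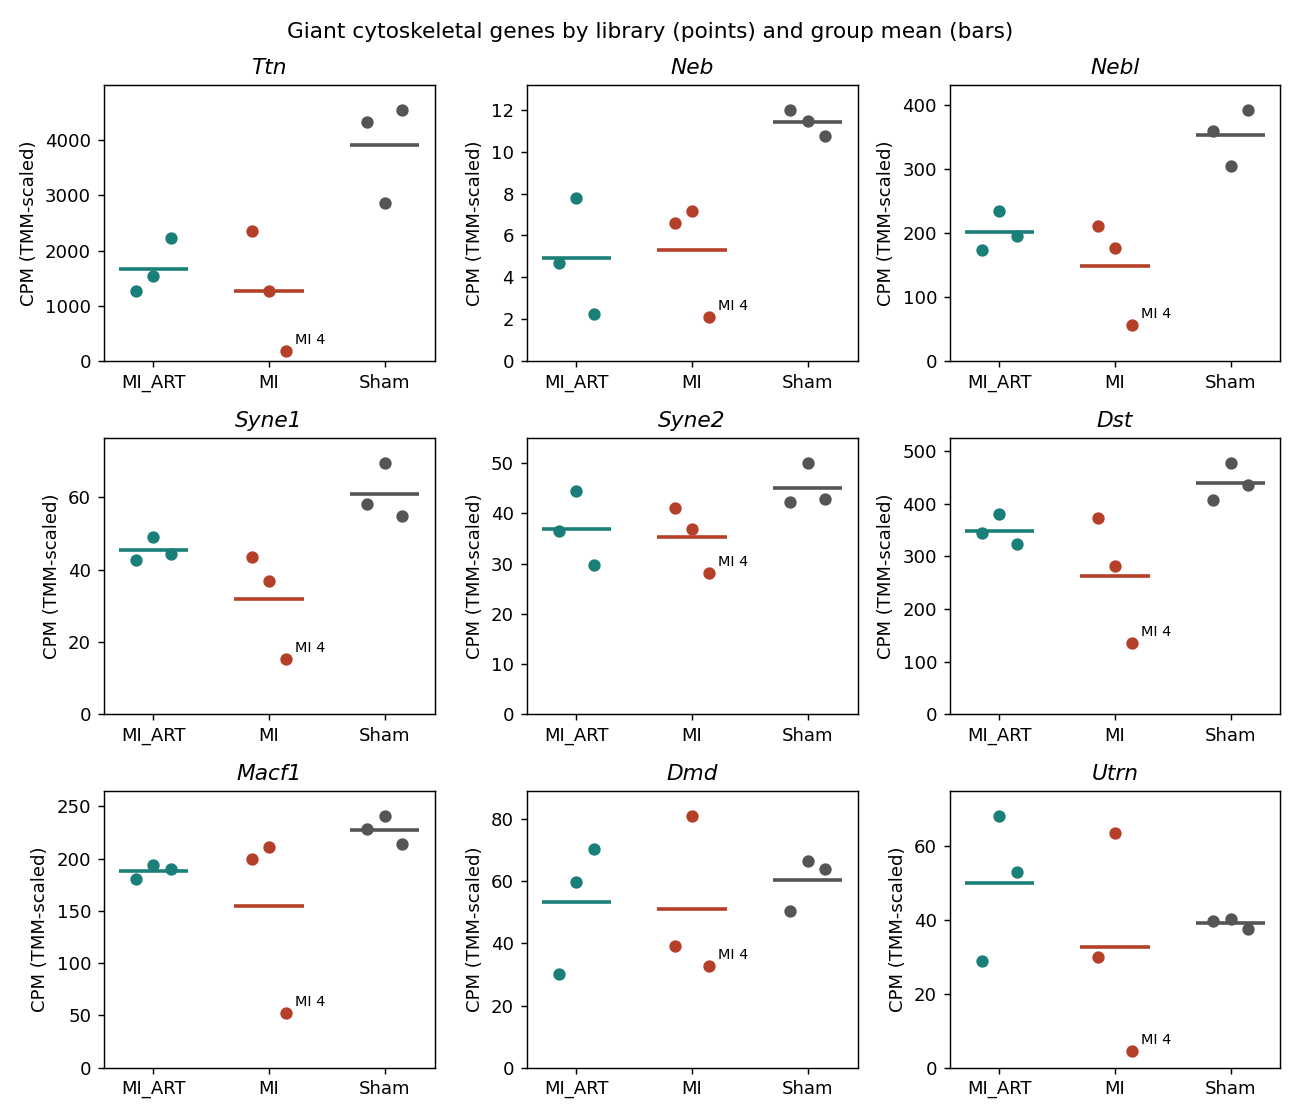
Level of each of the 9 genes in CPM (TMM-scaled, vertical axis, from 0) in MI_ART, MI and Sham; points are libraries and bars are group means of 3. Apart from Ttn, which was selected on this pattern, MI 4 is the lowest of 9 libraries for 7 of 8 genes, beside 27.3% of all tested genes. With total counts MI 4 is not the lowest for Neb, Syne2 or Dmd. The MI points lie below the Sham points for 6 of the 8 with TMM scaling, beside 23.2% of tested genes, and for 0 with total counts, beside 5.67%.

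Among the sarcomere genes, titin was at 1264, 1539 and 2227 CPM in MI_ART 1, 2 and 3, at 2357, 1268 and 178 CPM in MI 2, 3 and 4, and at 4332, 2866 and 4544 CPM in Sham 1, 2 and 3. Every infarcted library lay below every Sham library with TMM scaling, and MI 4 lay far below all others. Group means were 1677 ± 496 CPM in MI_ART, 1268 ± 1089 CPM in MI and 3914 ± 914 CPM in Sham (SD, n = 3 each). With total counts the means were 1945 ± 590, 1550 ± 1293 and 2686 ± 494 CPM in the same 3 groups, and the libraries of the groups overlapped. The fitted log2 fold change of Ttn was -1.63 (SE 0.68) for MI versus Sham, -1.22 (SE 0.67) for MI_ART versus Sham and 0.40 (SE 0.66) for MI_ART versus MI. Without MI 4 these were -1.11 (SE 0.34), -1.22 (SE 0.30) and -0.11 (SE 0.33), so the value against MI changed sign.

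Nebulette was at 174, 234 and 195 CPM in MI_ART 1, 2 and 3, at 211, 177 and 56.2 CPM in MI 2, 3 and 4, and at 359, 305 and 391 CPM in Sham 1, 2 and 3. With TMM scaling the infarcted libraries all lay below the Sham libraries, and with total counts the groups overlapped. Nebl fell 2.38-fold in MI relative to Sham (log2 -1.25, SE 0.39, edgeR adjusted p = 0.0350), and its log2 fold change was -0.81 (SE 0.39, adjusted p = 0.182) for MI_ART versus Sham. Without MI 4 both comparisons passed, at -0.86 (SE 0.17, adjusted p = 0.00538) for MI versus Sham and -0.81 (SE 0.15, adjusted p = 0.00423) for MI_ART versus Sham. The MI versus Sham call was lost without Sham 1 (0.0813), Sham 2 (0.0609), Sham 3 (0.1001), MI 3 (0.0566), MI_ART 2 (0.0531) or MI_ART 3 (0.0532). With total counts it was -0.41 (adjusted p = 0.384).

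Nebulin, which marks skeletal rather than heart muscle, was low throughout, at 183 to 668 counts per library. It was at 4.69, 7.77 and 2.26 CPM in MI_ART 1, 2 and 3, at 6.59, 7.16 and 2.12 CPM in MI 2, 3 and 4, and at 12.0, 11.5 and 10.7 CPM in Sham 1, 2 and 3. With TMM scaling all 6 infarcted libraries lay below Sham, with MI 4 and MI_ART 3 lowest, and with total counts both groups overlapped Sham. On the log2 scale Neb differed by -1.11 (SE 0.49, adjusted p = 0.113) for MI versus Sham and -1.22 (SE 0.50, adjusted p = 0.115) for MI_ART versus Sham, and the second passed without MI 4 (-1.21, adjusted p = 0.0374). These values are TMM-scaled, and with total counts the MI versus Sham value of Neb was -0.27 (adjusted p = 0.664). Skeletal muscle markers were mixed in MI versus Sham, with 2 higher (Tnnt3 and Tnni2) and 1 lower (Cacna1s) of 9 tested and a median log2 fold change of 0.01. Tnnt3, fast troponin T, was at 2.42, 2.80 and 1.29 CPM in MI_ART 1, 2 and 3, at 21.8, 33.1 and 63.4 CPM in MI 2, 3 and 4, and at 0.774, 0.671 and 0.421 CPM in Sham 1, 2 and 3. The 13 skeletal markers summed to 15.4 to 29.8 CPM in MI_ART, 52.3 to 132 CPM in MI and 33.9 to 45.4 CPM in Sham, with 2 to 5 of them at 0 in each library. Their part in the level of Neb was not tested.

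Among the nesprins, nesprin-1 was at 42.7, 49.0 and 44.4 CPM in MI_ART 1, 2 and 3, at 43.5, 36.8 and 15.3 CPM in MI 2, 3 and 4, and at 58.2, 69.5 and 54.9 CPM in Sham 1, 2 and 3. With TMM scaling both infarcted groups lay below Sham without overlap, and with total counts both overlapped Sham. Syne1 fell 1.91-fold in MI relative to Sham (log2 -0.93, SE 0.32, adjusted p = 0.0479), close to the threshold of 0.05. The call held without MI 2 (0.0231) or MI 4 (-0.60, 0.0124), and was lost when Sham 1 (0.0944), Sham 2 (0.137), Sham 3 (0.0856), MI 3 (0.0701), MI_ART 1 (0.0698), MI_ART 2 (0.0760) or MI_ART 3 (0.0715) was left out. With total counts it was -0.11 (adjusted p = 0.796). For MI_ART versus Sham the value was -0.42 (SE 0.32, adjusted p = 0.399), which passed without MI 4 (-0.42, SE 0.13, adjusted p = 0.0328) and turned to 0.31 with total counts.

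Nesprin-2 was at 36.4, 44.3 and 29.7 CPM in MI_ART 1, 2 and 3, at 41.1, 36.9 and 28.1 CPM in MI 2, 3 and 4, and at 42.3, 49.9 and 42.9 CPM in Sham 1, 2 and 3. Its drop in MI 4 was the smallest of the 9, and the MI_ART 2 value lay within the Sham range. Its log2 fold change was -0.35 (SE 0.20, adjusted p = 0.208) for MI versus Sham and -0.29 (SE 0.20, adjusted p = 0.356) for MI_ART versus Sham, and these turned to 0.49 and 0.44 with total counts.

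Of the spectraplakins, dystonin was at 344, 381 and 323 CPM in MI_ART 1, 2 and 3, at 374, 281 and 135 CPM in MI 2, 3 and 4, and at 407, 477 and 435 CPM in Sham 1, 2 and 3. Macf1 was at 180, 194 and 190.0 CPM in MI_ART 1, 2 and 3, at 200, 211 and 52.2 CPM in MI 2, 3 and 4, and at 228, 240 and 214 CPM in Sham 1, 2 and 3. For both genes all 6 infarcted libraries lay under the Sham range with TMM scaling, MI 4 well below the other 5. With total counts the MI_ART libraries instead all lay above Sham for both genes. Dst was then at 400, 435 and 378 CPM in MI_ART 1, 2 and 3 and at 290, 355 and 271 CPM in Sham 1, 2 and 3. Macf1 was at 210, 222 and 222 CPM in MI_ART and at 163, 179 and 133 CPM in Sham. For MI versus Sham, the Dst difference on the log2 scale was -0.74 (SE 0.30, adjusted p = 0.0894) and that of Macf1 -0.56 (SE 0.41, adjusted p = 0.321). Without MI 4 the Macf1 value was -0.15 (SE 0.11, adjusted p = 0.333). Dst passed without MI 2 (-1.08, adjusted p = 0.0213) but not without MI 4 (-0.42, SE 0.15, adjusted p = 0.0646). Total counts turned the MI versus Sham values to 0.09 for Dst and 0.27 for Macf1.

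Dystrophin was at 30.1, 59.7 and 70.3 CPM in MI_ART 1, 2 and 3, at 39.3, 80.8 and 32.6 CPM in MI 2, 3 and 4, and at 50.4, 66.6 and 64.1 CPM in Sham 1, 2 and 3. Utrophin was at 28.8, 68.0 and 52.9 CPM in MI_ART 1, 2 and 3, at 30.1, 63.5 and 4.47 CPM in MI 2, 3 and 4, and at 39.8, 40.4 and 37.6 CPM in Sham 1, 2 and 3. With TMM scaling these were the genes of the set whose infarcted libraries lay on both sides of the Sham libraries. MI_ART 1 and MI 2 were low for both genes, and MI 3 was high for both. With total counts the MI_ART libraries all lay above Sham for Utrn. They were at 33.5, 77.8 and 61.8 CPM in MI_ART 1, 2 and 3, and at 28.4, 30.0 and 23.5 CPM in Sham 1, 2 and 3. No comparison of either gene passed, with log2 fold changes for MI versus Sham of -0.25 (SE 0.38, adjusted p = 0.657) for Dmd and -0.26 (SE 0.68, adjusted p = 0.798) for Utrn. Without MI 4 the Utrn value turned to 0.26 (SE 0.37, adjusted p = 0.645), and with total counts both were positive, at 0.61 for Dmd and 0.58 for Utrn.

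Counted over the set, 2 of the 8 tested genes fell in MI relative to Sham (Nebl and Syne1) and 0 rose, beside 14.3% of all tested genes lower and 18.8% higher. At an unadjusted p under 0.05 the count was 4 of 8, beside 43.9% of all tested genes. DESeq2 called 2 lower, beside 17.1% of genes, and total counts left 0, beside 3.33% lower and 49.3% higher. Over the same 8 genes, the MI libraries lay all below the Sham libraries for 6 and all above for 0, beside 23.2% and 25.7% of tested genes. With total counts both numbers were 0, beside 5.67% below and 54.2% above. The median log2 fold change of the 8 was -0.65, beside 0.04 for all tested genes, and with total counts 0.18 beside 0.88. Without MI 4 the same number, 2 of 8, was lower, beside 15.5% of genes. Heart muscle markers moved in the same comparison: 6 of 9 were lower in MI (2 with total counts), and their summed level was 23430 to 30381 CPM in MI and 50599 to 55988 CPM in Sham. The 7 macrophage markers were all higher, with sums of 2348 to 2628 CPM in MI and 274 to 428 CPM in Sham. Of 4 ventricular markers 3 were lower, with Myl2, the ventricular myosin light chain, at -2.20. In these bulk samples, fewer muscle cells, another mix of atrial and ventricular muscle, and less of a transcript per muscle cell cannot be told apart.

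For MI_ART versus MI, which asks what artesunate changed after infarction, 0 of 8 genes passed in either direction, 0 had an unadjusted p under 0.05, beside 6.96% of tested genes, and DESeq2 called 0, beside 0.455%. Of all tested genes 0% were higher and 0.0103% lower. The libraries of MI_ART and MI overlapped for all 9 genes, where 7.38% of tested genes lay all above and 6.52% all below. Log2 fold changes ran from -0.11 (SE 0.49) for Neb to 0.61 (SE 0.68) for Utrn, with a median of 0.35 over the 8 genes other than Ttn. Without MI 4 they ran from -0.49 (Neb) to 0.17 (Syne1), with values under 0 for Ttn, Neb, Syne2, Macf1 and Dmd.

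For MI_ART versus Sham 0 of 8 passed, beside 7.41% of tested genes lower and 12.9% higher. A single gene, Neb, had an unadjusted p under 0.05, beside 33.3% of tested genes, and DESeq2 called 1 lower, beside 10.4%. The MI_ART libraries lay all below Sham for 5 of the 8 and above for 0, beside 22.8% and 25.4% of tested genes. With total counts they lay below for 0 and above for 3, beside 3.38% and 59.8%. Without MI 4, whose spread enters the error shared by all comparisons, 3 of 8 were lower (Neb, Nebl and Syne1), beside 14.6% of tested genes. Because MI_ART versus Sham and MI versus Sham share the Sham libraries, their values are set side by side and not correlated.

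**Figure D2:**
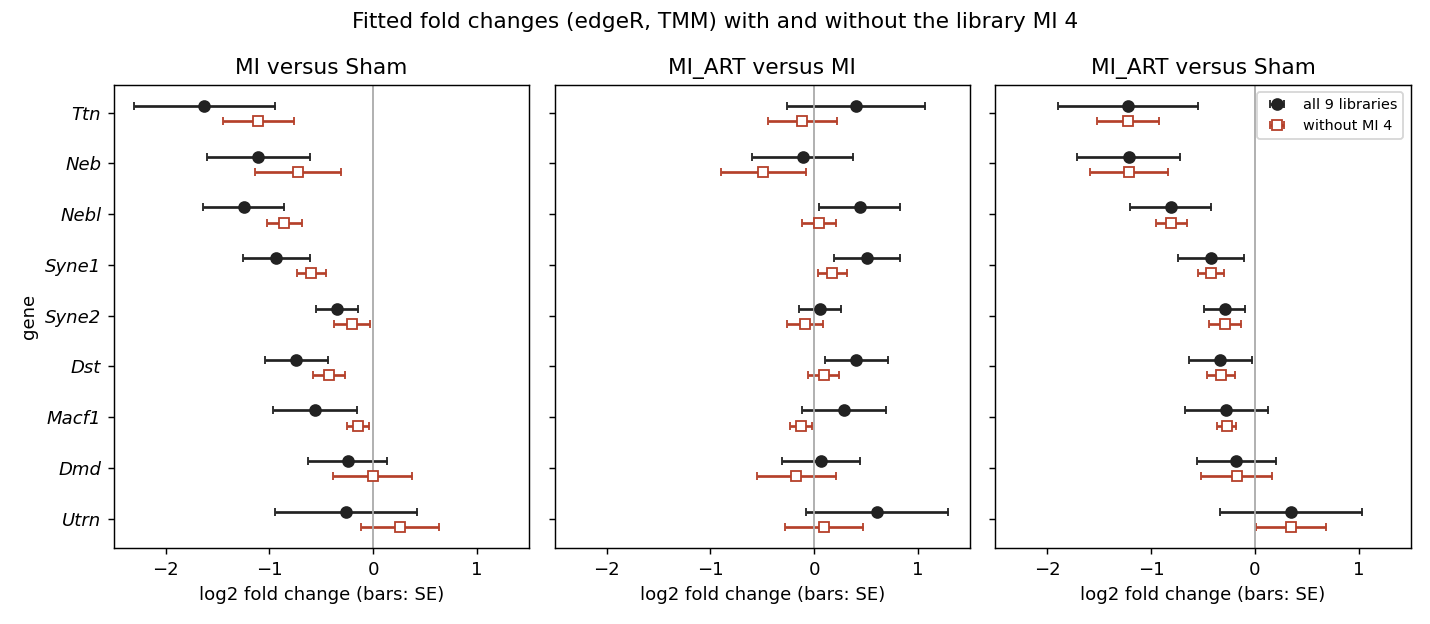
Log2 fold change (horizontal axis) with its standard error for each gene in MI versus Sham, MI_ART versus MI and MI_ART versus Sham; filled circles use all 9 libraries and open squares leave out MI 4. With MI 4 left out, MI versus Sham values lie closer to 0 for 8 of the 9 genes, and that of Utrn turns to 0.26; all points are TMM-scaled: with total counts 5 of the 9 MI versus Sham values are above 0.

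Apart from Ttn, which was selected on this pattern, MI 4 was the lowest of the 9 libraries for 7 of 8 genes and the second lowest for Dmd, beside 27.3% of all tested genes for which it was lowest. Relative to the mean of MI 2 and MI 3, MI 4 was 10.5-fold lower for Utrn and 10.2-fold lower for Ttn. The gap was 3.93-fold for Macf1, 3.45-fold for Nebl, 3.24-fold for Neb, 2.63-fold for Syne1, 2.42-fold for Dst, 1.84-fold for Dmd and 1.39-fold for Syne2. Heart muscle markers did not show a gap of that size as a group. Their ratio of MI 4 to the mean of MI 2 and MI 3 had a median of 0.927, from 0.289 for Ryr2, the calcium release channel and itself a very long gene, to 1.24 for Tnnt2, cardiac troponin T. Over all tested genes the same ratio had a median of 0.993, with 0.442 at the 5th percentile and 2.10 at the 95th. Some tissue markers also set MI 4 apart. Atrial markers summed to 4607 CPM in MI 4, against 2249 and 2053 in MI 2 and 3. Smooth muscle markers summed to 1412 against 322 and 514 CPM, and ventricular markers to 1370 against 2535 and 2101 CPM. Macrophage markers were close, at 2628 against 2560 and 2348 CPM. The part of tissue make-up in the MI 4 gap was not tested.

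Set against the 9 heart muscle markers of the same library, nebulette was nearly constant. Its CPM over their geometric mean was 0.102, 0.107 and 0.0977 in MI_ART 1, 2 and 3, 0.102, 0.104 and 0.0361 in MI 2, 3 and 4, and 0.103, 0.101 and 0.119 in Sham 1, 2 and 3. MI 4 alone stood apart. Titin relative to the same markers was 0.740, 0.707 and 1.11 in MI_ART 1, 2 and 3, 1.14, 0.749 and 0.115 in MI 2, 3 and 4, and 1.24, 0.950 and 1.38 in Sham 1, 2 and 3. Dystrophin did not follow them: it was 0.0176, 0.0274 and 0.0352 in MI_ART, 0.0190, 0.0477 and 0.0210 in MI, and 0.0145, 0.0221 and 0.0194 in Sham, in the order of the library numbers. The group difference of Nebl in this log2 measure was -0.56 for MI versus Sham (exact permutation test, two-sided, p = 0.5, adjusted p = 0.9 over 9 comparisons, where those of Ttn enter the adjustment only) and -0.07 for MI_ART versus Sham (exact p = 0.6, adjusted p = 0.9). For Dmd the differences were 0.54 (exact p = 0.5) and 0.48 (exact p = 0.3). The smallest p that 3 libraries against 3 can give is 0.1.

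**Figure D3:**
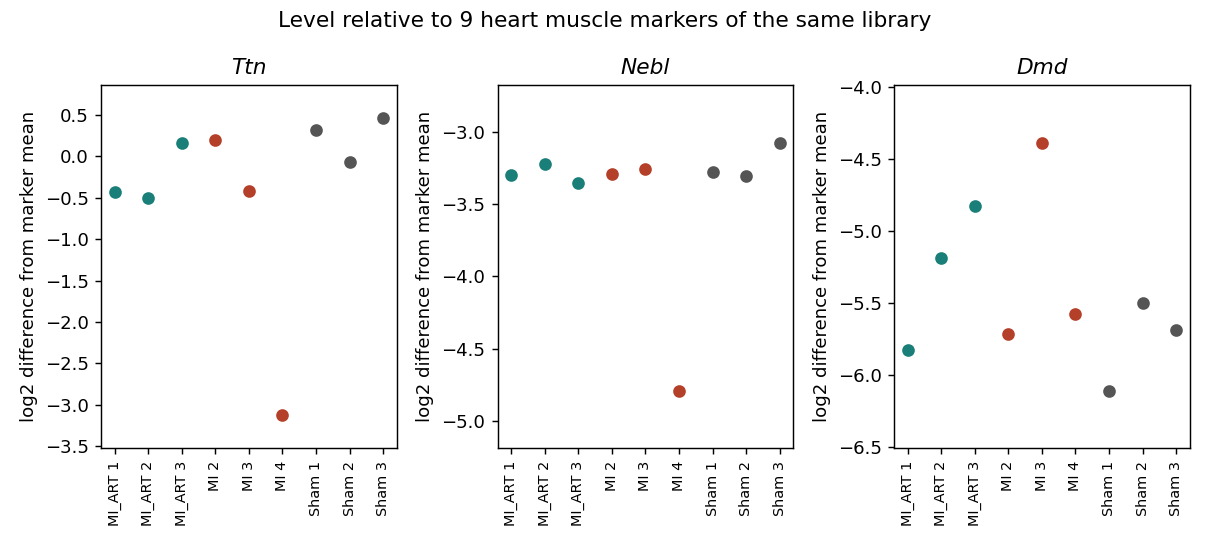
Log2 CPM of Ttn, Nebl and Dmd minus the mean log2 CPM of 9 heart muscle markers (vertical axis), 1 point per library in the order MI_ART, MI, Sham. For Nebl 8 libraries sit close together and MI 4 sits far below; Dmd spreads within every group.

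Ratios of counts between related genes do not depend on library scaling, and were compared across libraries only. Utrn over Dmd was 0.958, 1.14 and 0.752 in MI_ART 1, 2 and 3, 0.766, 0.786 and 0.137 in MI 2, 3 and 4, and 0.790, 0.606 and 0.587 in Sham 1, 2 and 3. The groups overlapped in every comparison, and MI 4 was far below the rest. Syne2 over Syne1 was 0.853, 0.906 and 0.668 in MI_ART 1, 2 and 3, 0.944, 1.00 and 1.84 in MI 2, 3 and 4, and 0.727, 0.719 and 0.781 in Sham 1, 2 and 3. All 3 MI libraries lay above both other groups, by a mean log2 difference of 0.70 from Sham (exact permutation test, two-sided, p = 0.1, adjusted p = 0.48 over 12 comparisons), with MI_ART minus MI at -0.58 (exact p = 0.1, adjusted p = 0.48). Without MI 4 the difference from Sham was 0.39 and that of MI_ART from MI was -0.28.

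Nebl over Neb was 37.0, 30.0 and 86.3 in MI_ART 1, 2 and 3, 32.0, 24.7 and 26.4 in MI 2, 3 and 4, and 30.0, 26.6 and 36.5 in Sham 1, 2 and 3. The single high value was in MI_ART 3, the library with the lowest atrial markers. Macf1 over Dst was 0.524, 0.510 and 0.589 in MI_ART 1, 2 and 3, 0.534, 0.751 and 0.386 in MI 2, 3 and 4, and 0.561, 0.504 and 0.491 in Sham 1, 2 and 3. MI held both the highest and the lowest value of this ratio. Neither pair passed in any comparison (adjusted p from 0.48 to 1, exact permutation tests).

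**Figure D4:**
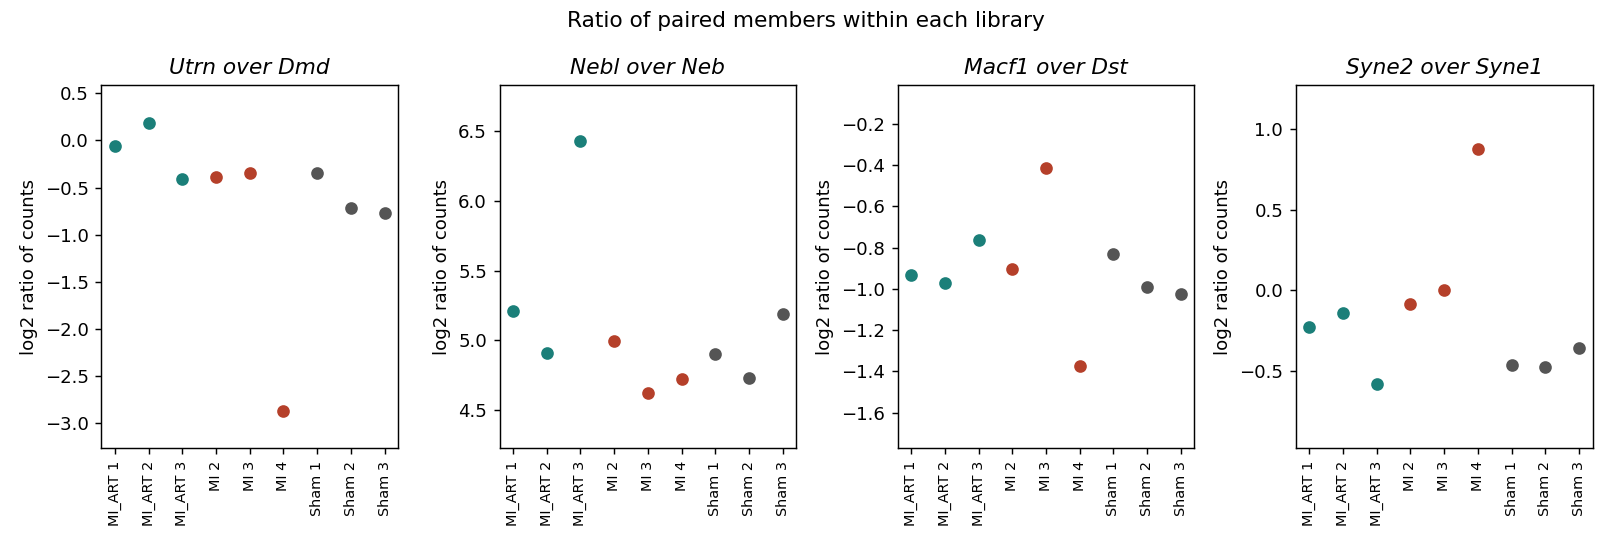
Log2 ratio of the counts of related genes within each library (vertical axis), for Utrn over Dmd, Nebl over Neb, Macf1 over Dst and Syne2 over Syne1, 1 point per library in the order MI_ART, MI, Sham. MI 4 is lowest for Utrn over Dmd and highest for Syne2 over Syne1, and MI_ART 3 is highest for Nebl over Neb.

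Across the 9 libraries the 36 pairs of these genes had Pearson correlations of log2 CPM from 0.31 to 0.99, with a median of 0.77. Leaving out MI 4, the range was -0.38 to 0.93 and the median 0.62. Over those 8 libraries Utrn correlated with Dmd at 0.77 and with the other 7 genes at -0.38 to 0.03. Dst and Syne1, at 0.93, and Ttn and Nebl, at 0.91, remained closely alike. These are descriptions over few libraries that share group, depth and scaling.

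Outside the set, and among 8856 genes with a mean of at least 10 CPM, the genes most like each member by this correlation over 9 libraries were Mitf, Abhd10 and Ppp2r5c for Ttn (0.991 to 0.987), and Asph, Fastkd2 and Akap6 for Nebl (0.998 to 0.996). For Syne1 they were Huwe1, Cdh2 and Nek9 (0.994 to 0.992), for Dst Smg5, R3hdm1 and Ezh1 (0.989 to 0.986), and for Macf1 Ppp6r3, Spopl and Meis1 (0.994 to 0.993). For Neb they were Lgalsl, Rbm45 and Hmcn1 (0.968 to 0.961), for Syne2 Rbm45, Trp53bp2 and Arhgef12 (0.970 to 0.944), for Utrn Gjc1, Klhl20 and Mbnl1 (0.983 to 0.955), and for Dmd Sgk3, Rbbp4 and Gbp3 (0.921 to 0.878). Without MI 4 the likeness to Nebl was still 0.991 for Asph, while that to Utrn was 0.699 for Klhl20 and 0.643 for Mbnl1.

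The partners of these genes were counted from lists drawn up by function, beside the shares of all tested genes given above: 18.8% higher and 14.3% lower in MI versus Sham, and 49.3% higher and 3.33% lower with total counts. In MI_ART versus Sham the shares were 12.9% higher and 7.41% lower. With total counts 8032 of the 19326 genes were higher there and 124 lower. Of 27 genes of the titin sarcomere, 12 passed as lower and 2 as higher in MI relative to Sham, and with total counts 3 were lower and 8 higher. The heart muscle markers Mybpc3, Myh6, Actn2 and Csrp3 are among these 27, so the list and the markers are not separate counts. Tcap, which caps titin at the Z-disc, was at 583, 515 and 629 CPM in MI 2, 3 and 4 and at 2142, 2223 and 2384 CPM in Sham 1, 2 and 3, so MI 4 did not stand apart. It fell 3.91-fold (log2 -1.97, SE 0.24, adjusted p = 0.000310), and by 1.12 on the log2 scale with total counts. Myoz2, a calcineurin-binding Z-disc protein, fell 2.59-fold (adjusted p = 0.000444), and Myh6, the alpha myosin heavy chain, fell 2.68-fold (adjusted p = 0.000863). In MI_ART versus Sham 7 of the 27 were lower and 2 higher, with Tcap at -1.59 (adjusted p = 0.00147). With total counts 1 was lower and 7 higher, and Tcap was at -0.85 (adjusted p = 0.0145).

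Of 19 thin filament genes 9 passed as lower and 1 as higher in MI relative to Sham, against 3 lower and 6 higher with total counts. This list shares Actc1, Tnnt2, Tnnc1 and Tnni3 with the heart muscle markers, so it is not a separate count from them. The part of muscle content in the titin, thin filament and dystrophin complex lists was not tested. Tnni3, cardiac troponin I, fell 2.98-fold (adjusted p = 0.000350), and Tmod4, a tropomodulin that caps the pointed end of actin, fell 5.23-fold (adjusted p = 0.00100). Lasp1, an actin-binding protein with nebulin-like repeats, went the other way: it was at 54.4, 66.7 and 77.8 CPM in MI 2, 3 and 4 and at 18.5, 22.8 and 15.9 CPM in Sham 1, 2 and 3. It rose 3.48-fold (SE 0.23 on the log2 scale, adjusted p = 0.000411). In MI_ART versus Sham 10 of the 19 were lower and 1 higher, against 2 lower and 5 higher with total counts. The higher one with TMM was Lasp1 (adjusted p = 0.00123), at 3.04-fold.

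Of 20 tested genes of the dystrophin complex 8 passed as lower and 0 as higher in MI relative to Sham, although total counts gave 0 lower and 7 higher. Sgca, alpha-sarcoglycan, fell 2.31-fold (adjusted p = 0.00112), and Sspn, sarcospan, fell 2.29-fold (adjusted p = 0.00328). With total counts their log2 values were -0.37 and -0.36, and neither passed. In MI_ART versus Sham 3 of 20 were lower, with Sgca at -0.92 (adjusted p = 0.00742). With total counts 0 were lower and 4 higher, and Sgca was at -0.19 (adjusted p = 0.471).

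Of 20 LINC complex and nuclear lamina genes 7 passed as higher and 1 as lower in MI relative to Sham, against 14 higher and 0 lower with total counts. Lmnb1, lamin B1, was at 23.9, 41.2 and 33.0 CPM in MI 2, 3 and 4 and at 5.60, 4.60 and 3.20 CPM in Sham 1, 2 and 3. It rose 7.32-fold (log2 2.87, SE 0.29, adjusted p = 0.000147), Lmnb2, lamin B2, rose 3.33-fold (adjusted p = 0.00159), and Tmem43, an inner nuclear membrane protein, rose by 0.85 on the log2 scale (adjusted p = 0.00129). In MI_ART versus Sham 5 were higher and 0 lower, with Lmnb1 at 2.44 (adjusted p = 0.000465), against 14 higher and 0 lower with total counts.

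Of 22 plakin and linker genes 5 passed as higher and 3 as lower in MI relative to Sham, against 13 higher and 0 lower with total counts. Vim, vimentin, rose 3.63-fold (adjusted p = 0.000984), and Mapre1, the microtubule end-binding protein EB1, rose 1.62-fold (adjusted p = 0.00450). Dsp, desmoplakin, fell 2.80-fold (adjusted p = 0.00568), and at -0.67 with total counts it did not pass (adjusted p = 0.0989). In MI_ART versus Sham 1 was higher, Vim at 1.58 (adjusted p = 0.00400), and 1 was lower, against 10 higher and 0 lower with total counts. Fibroblast markers moved in the same comparison as the lamina and linker lists: 5 of 7 were higher and 1 lower in MI versus Sham, with sums of 4054 to 4852 CPM in MI and 1291 to 1508 CPM in Sham, and their part in these lists was not tested. None of the genes of these 5 lists passed in MI_ART versus MI. Genes with the smallest p in their list there were Lmod3 (log2 0.66, adjusted p = 0.709), Dtnb (-0.73, adjusted p = 0.730), Tor1a (-0.55, adjusted p = 0.724) and Gas2l1 (-0.93, adjusted p = 0.685).

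Other long genes were set beside the 9. Of 42 genes outside the set that are known for very long coding sequences, the median log2 difference from the Sham mean was -0.06, -0.06 and -0.08 in MI_ART 1, 2 and 3, and -0.12, -0.03 and -0.73 in MI 2, 3 and 4. MI 4 was the lowest of the 9 libraries for 24 of the 42 (57.1%), beside 27.3% of all tested genes. This list of 42 was not planned, and MI 4 stood out less by genomic span. For the 100 longest spans outside the set the medians were -0.09, -0.12 and -0.31 in MI_ART 1, 2 and 3, and -0.28, -0.29 and -0.45 in MI 2, 3 and 4. For the 50 longest they were -0.21, -0.27 and -0.31 in MI_ART, and -0.31, -0.29 and -0.30 in MI. MI 4 was lowest for 44% of the 100 and 32% of the 50. For 89 ribosomal protein genes, which are short, the median difference was 0.31, 0.32 and 0.39 in MI_ART and 0.31, 0.46 and 1.27 in MI 2, 3 and 4. With genes grouped by genomic span, MI 4 ran from 0.58 for 782 protein-coding genes of up to 3000 bases to -0.41 for 442 genes of over 300000 bases. The other infarcted libraries ran from 0.05 to 0.12 in the shortest group and from -0.27 to -0.05 in the longest. With total counts the median of the 42 long genes was 0.15 in MI 4 and 0.66 to 0.83 in the other infarcted libraries. The part of transcript length in the values of the 9 genes was not tested.

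**Figure D5:**
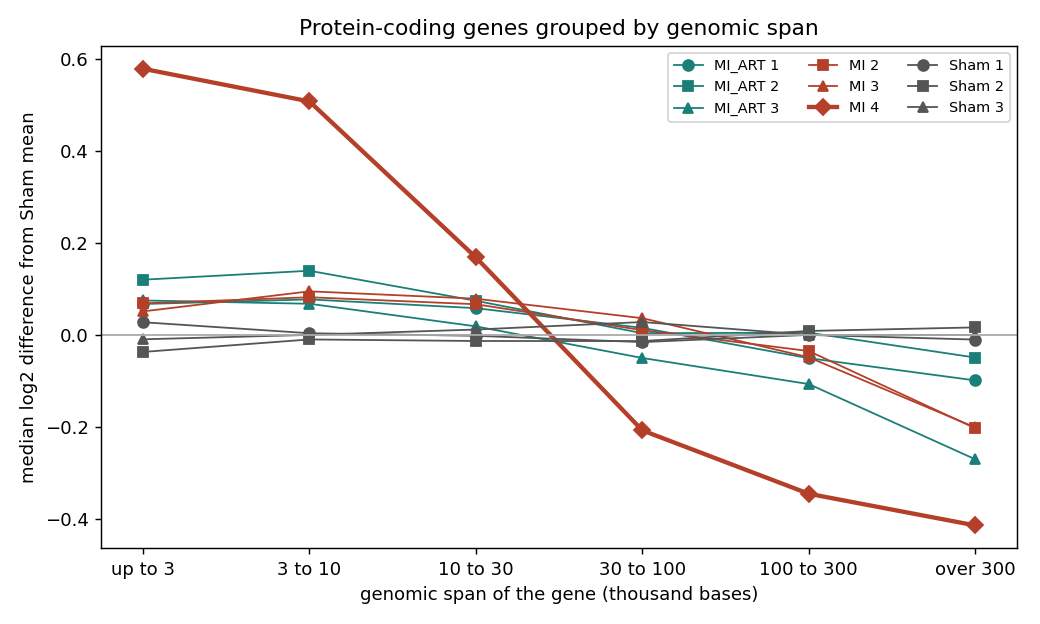
Median log2 difference in CPM from the Sham mean (vertical axis) of tested protein-coding genes grouped by genomic span in kb (horizontal axis), 1 line per library, with the MI_ART libraries first in the legend. MI 4 runs from 0.58 to -0.41 while the lines of the other libraries stay between 0.14 and -0.27; values are TMM-scaled, and with total counts MI 4 was not below 0 for the 100 genes of longest span (0.0012).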

How the data were processed

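The deposited files hold raw counts of reads per gene made by the authors, 1 table of the series and 1 file per library, which were equal in every value. The submitters' processing notes list featureCounts 1.5.0-p3, HISAT without a version, the build GRCm38 and DESeq 1.8.3. How strand and multi-mapping reads were handled is not given in the sources used here. Per the labels' protocols, 1.3 µg of RNA entered a SMARTER mRNA library kit, and the labels name different RNA extractions.

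Counts were fitted with edgeR 4.0.16 under R 4.3.3, using filterByExpr, TMM scaling, 1 mean per group over all 9 libraries (common dispersion 0.150), quasi-likelihood F tests and Benjamini-Hochberg adjustment over 19326 genes, with calls at an adjusted p under 0.05. Adjusted p-values of genes are edgeR's unless another tool is named. Ratios and muscle-relative levels used a prior count of 0.5 and two-sided exact permutation tests. On simulated data with 200 genes changed 4-fold among 19326, the fit recovered 61% for MI versus Sham, 59.5% for MI_ART versus MI, and 59% for MI_ART versus Sham.

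The members, lists and tests were chosen with earlier results of these data known. Named partner genes are, per list, the 3 with the smallest p in MI versus Sham and the 1 with the smallest p in each other comparison; Tnnt3, Bmp10, Ryr2, Tnnt2 and Bend6 were named after their values were seen. Some genes picked by the rule are left unreported, though the counts per list include them. Protein lengths were planned for the long-gene description; genomic spans from the RefSeq gene table (GRCm38.p6, 17675 of 19326 tested genes matched, 91.5%) were used instead. Levels are not compared between genes, since transcript lengths were not at hand, and no sequence was at hand to print. Alternatives were RLE size factors, total counts, no filter, DESeq2 1.42.0, only the compared groups, a replicate block, each library left out, and other prior counts.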

Additional observations from a re-analysis of the deposited data

How the results depend on the processing

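Of the 8 genes other than Ttn, total counts turned the direction of 5 in MI versus Sham, 5 in MI_ART versus Sham and 2 in MI_ART versus MI. With total counts, MI versus Sham turned to 0.49 for Syne2, 0.090 for Dst, 0.27 for Macf1, 0.61 for Dmd and 0.58 for Utrn, MI_ART versus Sham to 0.31 for Syne1, 0.44 for Syne2, 0.40 for Dst, 0.46 for Macf1 and 0.56 for Dmd, and MI_ART versus MI to -0.045 for Syne2 and -0.044 for Dmd. The count of lower genes in MI versus Sham was 2 with all libraries, 0 with total counts, 0 without the filter and 0 with only the compared groups, and 0 to 3 over the 9 libraries left out. In MI_ART versus Sham it was 0, and 1 with DESeq2 (Neb), 1 with only the compared groups (Nebl), 2 without MI 4 and MI_ART 3 together (a choice made after seeing the data), and 0 to 3 over the libraries left out.

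The labels do not say that the replicate numbers pair the libraries. After group means were removed, same-numbered libraries correlated at 0.0011 to 0.192 and differently numbered ones at -0.194 to 0.143, which does not settle it. With a replicate block the lower count was 3 in MI versus Sham and 3 in MI_ART versus Sham, Utrn turned to 0.034 in MI versus Sham, and MI_ART versus MI turned to -0.10 for Ttn, -0.076 for Syne2 and -0.11 for Macf1. Without MI 4 and MI_ART 3 together, Utrn was 0.26 in MI versus Sham, and MI_ART versus MI was -0.37 for Ttn, -0.13 for Macf1 and -0.42 for Dmd.

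Over the libraries left out in turn, MI_ART versus MI ran from -0.11 to 1.21 for Ttn, -0.60 to 0.24 for Neb, -0.094 to 0.19 for Syne2, -0.13 to 0.58 for Macf1 and -0.18 to 0.57 for Dmd. Utrn ran from -1.18 to 0.26 in MI versus Sham and Dmd from -0.43 to 0.11 in MI_ART versus Sham. The log2 ratio Utrn over Dmd ran from -1.01 to 0.24 in MI versus Sham. Macf1 over Dst ran from -0.19 to 0.29 in MI versus Sham, -0.23 to 0.25 in MI_ART versus MI and -0.0024 to 0.12 in MI_ART versus Sham. Relative to heart muscle markers, MI_ART versus MI ran from -0.15 to 1.51 for Ttn, -0.017 to 0.75 for Nebl and -0.30 to 0.36 for Dmd. The median difference from Sham of the 100 genes of longest span averaged -0.34 over MI libraries and -0.17 over MI_ART libraries. It was 0.15 and 0.31 with total counts, and -0.22 in MI over the 200 longest. The cause of these changes was not tested. Neb had 183 to 668 counts per library.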
